A study of Sus scrofa with 55 samples.

Results

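Single pig oocytes were split by how much of their RNA came from the mitochondrial genome. Raw counts of 55 oocytes were used. An oocyte library was dropped where the summed counts of INHA, CYP11A1, HSD17B1 and GJA1, 4 genes of granulosa cells, exceeded those of GDF9, BMP15, ZP2, ZP3 and ZP4, 5 genes of the oocyte. Of the 42 oocytes retained, 30 had at least 60% of all counts in the 13 protein genes of mitochondrial DNA and form the high share class. The other 12 oocytes form the low share class, and 13 libraries were dropped. The classes were selected on this measured share, so the levels of the 13 genes are given as description, with no test. The 9 sorting genes stayed among the genes tested. Since the rule used them, their values too are read as description only.

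All oocytes came from 4 pubertal gilts (201, 205, 801 and 803) of the Landrace and Yorkshire breeds, 208 to 210 days old. Every gilt had been given 5 IU of pregnant mare serum gonadotropin, which promotes follicle growth, 48 h before ovary collection, and no untreated animal was included. The ovaries gave antral follicles of 5 stages, and Smart-seq2, a full-length cDNA method, was run on the cytoplasmic RNA of each cell after its genomic DNA had been spun off, with 16 cycles of PCR. Both share classes therefore hold the same animals, treatment and stages, and differ by no labelled condition. Breed was not tied to a gilt number in the labels. The gilt is the replicate, since oocytes of 1 ovary pair share their animal.

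The 13 genes encode subunits of the respiratory chain and of ATP synthase: ND1 to ND6 with ND4L belong to complex I, CYTB to complex III, COX1 to COX3 to complex IV, and ATP6 and ATP8 to ATP synthase. All other proteins of these complexes, and those that copy, transcribe and translate mitochondrial DNA, come from nuclear genes. The oocyte carries more mitochondrial DNA than other cells and passes its mitochondria to the embryo. It also builds the zona pellucida, the glycoprotein coat made of ZP2, ZP3 and ZP4, and secretes GDF9 and BMP15 to the cumulus cells around it.

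In the high share class the 13 genes took 62.7% to 91.8% of counts, with a median of 84.7%. In the low share class they took 3.62% to 57.0%, with a median of 24.0%. The high values lay close together: 2 oocytes were between 60% and 70%, 8 between 70% and 80%, 17 between 80% and 90%, and 3 above 90%. The low values were spread out: 5 oocytes were below 10%, 2 between 10% and 30%, and 5 between 30% and 60%. The last oocyte inside the threshold, from a stage 1 follicle of gilt 801, had 62.7% (95% Wilson interval 62.7% to 62.8%), and the first outside, from stage 5 of gilt 205, had 57.0% (56.9% to 57.0%). These intervals cover counting error only. The 13 dropped libraries held 2.104% to 30.2%.

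The classes were spread unevenly over the gilts. Gilt 201 gave 13 high and 1 low oocyte, gilt 205 gave 7 and 2, gilt 801 gave 7 and 4, and gilt 803 gave 3 and 5. Of the 13 dropped libraries, 12 were from gilt 803 and 1 from gilt 801. The high oocytes had median shares of 84.6%, 85.6%, 85.3% and 72.9% in gilts 201, 205, 801 and 803, so those of gilt 803, at 71.0% to 73.1%, were in the lower part of the class. The single low oocyte of gilt 201 had 50.98%. Those of gilt 205 had 18.2% and 57.0%. Gilt 801 had low oocytes at 3.62%, 4.68%, 4.73% and 46.3%, and gilt 803 at 3.71%, 7.85%, 29.8%, 33.2% and 40.4%. Both classes occurred at every follicle stage: the counts of high and low oocytes were 5 and 3 at stage 1, 7 and 4 at stage 2, 7 and 1 at stage 3, 5 and 2 at stage 4, and 6 and 2 at stage 5. The mean stage number of high oocytes minus that of low ones was 2.00, 0.714, -0.964 and 0.600 in the 4 gilts, a mean of 0.588 (exact sign-flip permutation over 4 gilts, two-sided, p = 0.5; the smallest p possible is 0.125). Without gilt 201 the mean was 0.117.

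**Figure D1:**
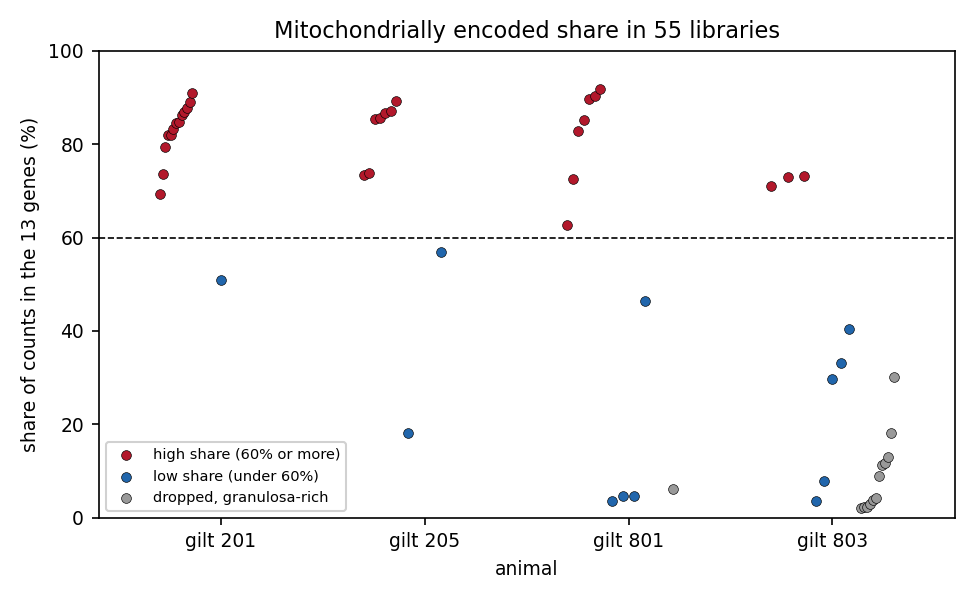
Share of each oocyte's counts in the 13 mitochondrial protein genes (percent, vertical axis) by gilt, with 1 point per library coloured by class and the 60% threshold as a line. The 30 high oocytes sit between 62.7% and 91.8%, while the 12 low ones run from 3.62% to 57.0% and the 13 dropped libraries, nearly all of gilt 803, from 2.104% to 30.2%.

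Total depth overlapped between the classes, and the counts left for all other genes differed more. Total counts were 4883958 to 23426990 in high oocytes and 151104 to 38282850 in low ones. Counts outside the 13 genes were 892686 to 5221003 in the high class, with a median of 1948566, and 139240 to 36897623 in the low class, with a median of 7315266. On the log10 scale the mean counts outside the 13 genes of high minus low oocytes differed by -0.417, -0.545 and -1.01 in gilts 201, 205 and 801 and by 0.118 in gilt 803 (mean -0.464). This quantity follows from the share that formed the classes and is given without a test. The ranges of both quantities overlapped between classes.

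Some libraries of the low class stood apart from the rest. The only low oocyte of gilt 201, from stage 1, had 11777 CPM (counts scaled to 1000000 counts outside the 13 genes) in the theca and stroma markers, the highest of the 42. In gilt 803, a stage 2 oocyte had 227 CPM in the 5 oocyte genes and 15347 CPM in blood, immune and endothelial markers, another stage 2 oocyte had 139240 counts outside the 13 genes and 1645 CPM in the oocyte genes, and a stage 5 oocyte had 1426 CPM in the oocyte genes. All 30 high oocytes had at least 3764 CPM in the oocyte genes. Results that move most without these libraries are given beside their main values where they occur.

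Within the 13 genes, the mean make-up was similar in both classes, with the largest difference for COX1. COX1, the catalytic subunit of complex IV, took 29.7% ± 2.96 (SD, n = 4 gilts) of the counts of the 13 genes in high oocytes and 25.4% ± 5.45 in low ones. Its part was higher in the high class of every gilt, by 0.670, 7.09, 0.444 and 8.65 percentage points in gilts 201, 205, 801 and 803. COX3, another core subunit of that complex, took 13.5% ± 0.159 and 15.3% ± 1.89, and COX2, which receives electrons from cytochrome c, took 9.28% ± 1.46 and 10.2% ± 3.10. ATP6, the membrane subunit of ATP synthase that passes protons, took 12.2% ± 1.16 and 13.1% ± 2.36. CYTB of complex III took 8.89% ± 1.80 and 9.34% ± 1.24. Among the complex I subunits, ND4 took 7.67% ± 1.18 and 7.04% ± 1.51, ND2 5.24% ± 1.61 and 5.34% ± 1.75, ND1 4.49% ± 1.6005 and 4.80% ± 2.01, and ND5 4.10% ± 0.559 and 4.27% ± 0.589. ND4L, ND3 and ND6 took 1.89%, 1.06% and 1.27% in high oocytes and 1.70%, 1.38% and 1.39% in low ones. Besides COX1, which was higher in the high class of all 4 gilts, only ND5 had 1 sign in every gilt, with a difference of -0.389 to -0.022 points between high and low oocytes. These are parts of counts, not levels per length, so they do not rank the genes, and reads where ATP8 overlaps ATP6 or ND4L overlaps ND4 depend on a counting setting that is not given in the sources used here.

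In retained oocytes the parts of ATP8 and ND1 separated gilts 201 and 803 from gilts 205 and 801. Those of COX3, ATP6 and ND5 overlapped between all gilts. For COX1 the high and low oocytes of gilt 803 did not overlap, so that gene separated the classes in that gilt. ATP8, the small ATP synthase subunit, took 0.0222% to 0.137% of the 13 genes' counts in the 14 oocytes of gilt 201 (median 0.0507%) and 0.0579% to 0.910% in the 8 retained oocytes of gilt 803 (median 0.0929%). It took 1.10% to 1.599% in the 9 oocytes of gilt 205 and 1.18% to 1.65% in the 11 of gilt 801, both with a median of 1.40%. No oocyte of gilts 201 and 803 reached the lowest oocyte of gilts 205 and 801. ND1 showed the same grouping, with 1.86% to 3.47% in gilt 201 and 2.65% to 4.77% in gilt 803 against 5.25% to 6.49% in gilt 205 and 5.28% to 7.32% in gilt 801. For ND2 the ranges overlapped, at 2.13% to 3.86% in gilt 201, 2.31% to 7.96% in gilt 803, 4.99% to 7.45% in gilt 205 and 5.47% to 8.53% in gilt 801.

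An ID with no symbol, ENSSSCG00000035520, went the other way. It had 3.57 to 5.49 counts per 100 counts of the 13 genes in gilt 201 and 1.92 to 6.85 in gilt 803, but 0.00431 to 0.00748 in gilt 205 and 0.00457 to 0.0103 in gilt 801. The dropped libraries had 1.08 to 6.26 in gilt 803 and 0.0172 in gilt 801. For the named genes the dropped library of gilt 801 lay apart from the retained oocytes of its animal, with ATP8 at 0.872% and ND1 at 3.22%, the latter within the ranges of gilts 201 and 803. The 12 dropped libraries of gilt 803 had 0.0278% to 0.728% for ATP8 and 1.94% to 4.21% for ND1. Retained high and low oocytes of 1 gilt lay on the same side of this grouping, but their ranges did not always overlap. In gilt 205 the low oocytes had 6.44% and 6.49% for ND1 and the high ones 5.25% to 6.24%. The grouping of gilts was noticed after the values were seen, and its cause was not tested. Both classes were compared within each gilt. Whether this grouping moved the class contrast was not tested.

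**Figure D2:**
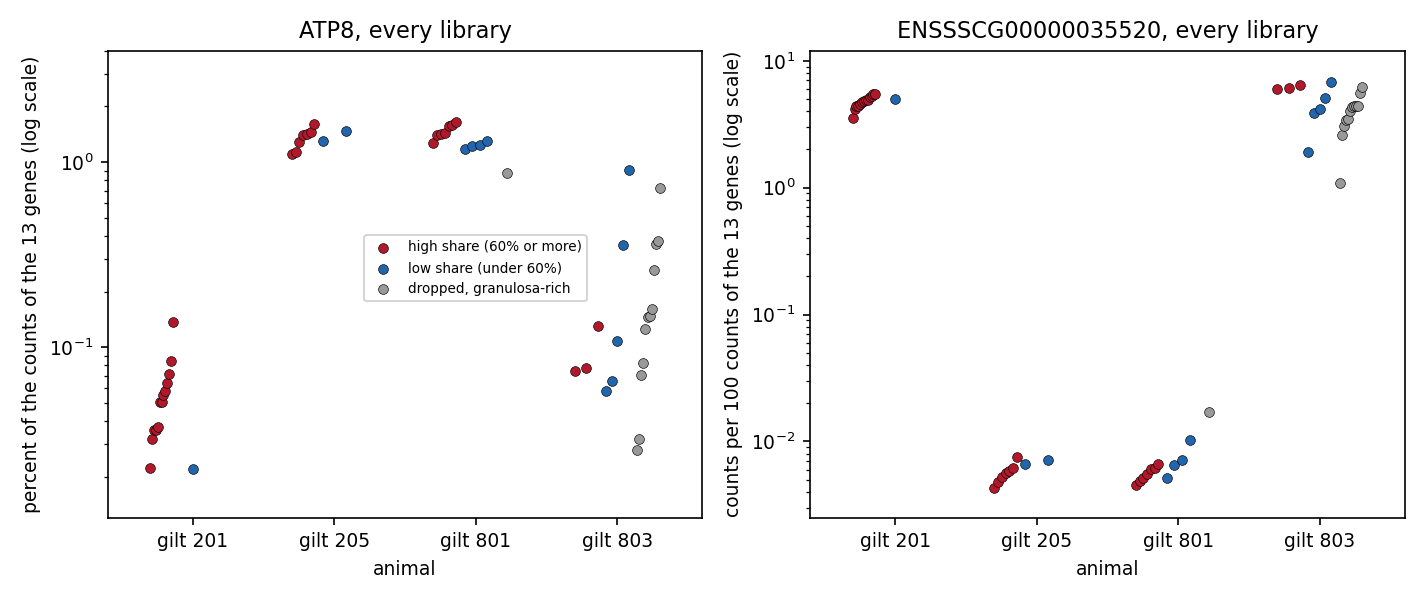
ATP8 as percent of the counts of the 13 mitochondrial protein genes (left) and the unnamed ID ENSSSCG00000035520 as counts per 100 counts of the 13 genes (right), both on log axes, with 1 point per library ordered by value within each gilt and class. Gilts 205 and 801 sit between 1.10% and 1.65% for ATP8 in their retained oocytes, whereas gilts 201 and 803 sit at 0.910% or less, and the order is reversed for the unnamed ID.

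Unnamed IDs took larger parts in most high oocytes, with overlapping ranges. The table holds 24 IDs without a symbol whose numbers run among those of the 13 genes. They took 5.43% to 39.2% of all counts outside the 13 genes in high oocytes (median 17.03%) and 0.121% to 9.504% in low ones (median 1.84%). One of them, ENSSSCG00000018063, made up most of this, with 4.18% to 28.7% in high oocytes (median 14.5%) and 0.0825% to 8.72% in low ones (median 1.496%). ENSSSCG00000035520 took a further 24.3% (median) of the counts outside the 13 genes in high oocytes of gilt 201 and 16.3% in those of gilt 803, against 0.0324% and 0.0386% in gilts 205 and 801. Since they fill part of the counts over which other genes are scaled, results were also computed without these 25 IDs. Counting them into the share moved 0 oocytes to the other class.

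The 5 oocyte genes of the sorting rule had higher CPM in the high class. These 5 genes and the 4 granulosa genes are described only, although they stayed in the fits over all genes. Summed over the 5, CPM was 3764 to 335132 in high oocytes (median 103176) and 227 to 54317 in low ones (median 19014). ZP3, the zona protein that binds sperm in mouse, had 363 CPM in the lowest high oocyte, 41927 in the median one and 130630 in the highest, against 42.8, 7061 and 20437 in low oocytes, and 24 of 30 high oocytes lay above every low one. ZP4 had 1120, 35596 and 105920 CPM against 41.3, 5065 and 17746, and again 24 high oocytes lay above all low ones. ZP2, cleaved after fertilisation in mouse, had 474, 13798 and 73825 CPM against 31.7, 2216 and 13009. GDF9, a growth factor that acts on cumulus cells, had 33.8, 6309 and 23472 CPM against 8.85, 2287 and 4589.

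In sums per gilt and class scaled by TMM (trimmed mean of M values), the fitted log2 differences of high over low were 3.38 ± 0.86 (SE) for ZP2, 3.11 ± 1.01 for ZP3, 3.30 ± 0.94 for ZP4 and 2.63 ± 0.76 for GDF9, each above 0 in all 4 gilts. BMP15, the paralogue of GDF9, differed, with 1.98 ± 2.02 and a higher level in the high class in 2 of 4 gilts. The granulosa genes of the rule had values of -1.19 for INHA, a subunit of inhibin, -0.88 for GJA1, a gap junction protein, -0.14 for HSD17B1 and -0.01 for CYP11A1, enzymes of steroid synthesis. Since the rule used these 9 genes, the labelled cell type was checked on oocyte genes outside it. OOEP was above 0 in all 30 high oocytes (80.1 to 842 CPM, median 395). It was at 0 in 3 of 12 low ones, which reached 1649 CPM (median 322). ZAR1 was above 0 in all 30 (3.83 to 264 CPM, median 79.3). It was at 0 in 2 of 12 low ones, which reached 346 CPM (median 52.6). For each gene 3 low oocytes lay above every high one. Another oocyte gene, H1-8, had log2 differences of 4.15, -0.13, -0.51 and -0.17 in gilts 201, 205, 801 and 803.

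Fewer genes were detected in high than in low oocytes of 3 gilts, but not of the fourth. Each oocyte was thinned to 892686 counts outside the 13 genes, which left out 1 low oocyte of gilt 803, and a gene with at least 1 count was taken as detected. High oocytes then had 3995 to 12707 genes detected (median 8503) and low oocytes 6242 to 14130 (median 12823). In gilt 201 the means were 7225 in high and 13047 in low oocytes, in gilt 205 9237 and 13587, and in gilt 801 8844 and 12423. In gilt 803 they were 9969 and 8307. The differences were -5822, -4350, -3579 and 1662 genes, a mean of -3022, and the exact sign-flip permutation test over the 4 gilts gave p = 0.25, two-sided, where 0.125 is the smallest p possible. Without gilt 803 the mean was -4584 genes, and without gilt 201 it was -2089. With the 25 unnamed IDs taken out before thinning, the mean was -2372, and without the 3 oocytes under 2000 CPM in the oocyte genes it was -3026. Thinning to an equal total with the 13 genes included gave -4219, and unthinned counts gave -4597.

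Within the high class the share and the number of genes detected at equal depth went opposite ways. Across the 30 high oocytes Pearson's r was -0.64 and Spearman's rank coefficient -0.535. Within gilts the r was -0.492 in gilt 201 (13 oocytes), -0.785 in gilt 205 (7) and -0.916 in gilt 801 (7), with Spearman's coefficients of -0.374, -0.571 and -0.893. Gilt 803, with 3 high oocytes, was too small for a value. With the unnamed IDs taken out, r was -0.618 over all and -0.42, -0.72 and -0.915 within the gilts. The points share a library for both measures and oocytes of 1 gilt share an animal, so these values are descriptive.

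**Figure D3:**
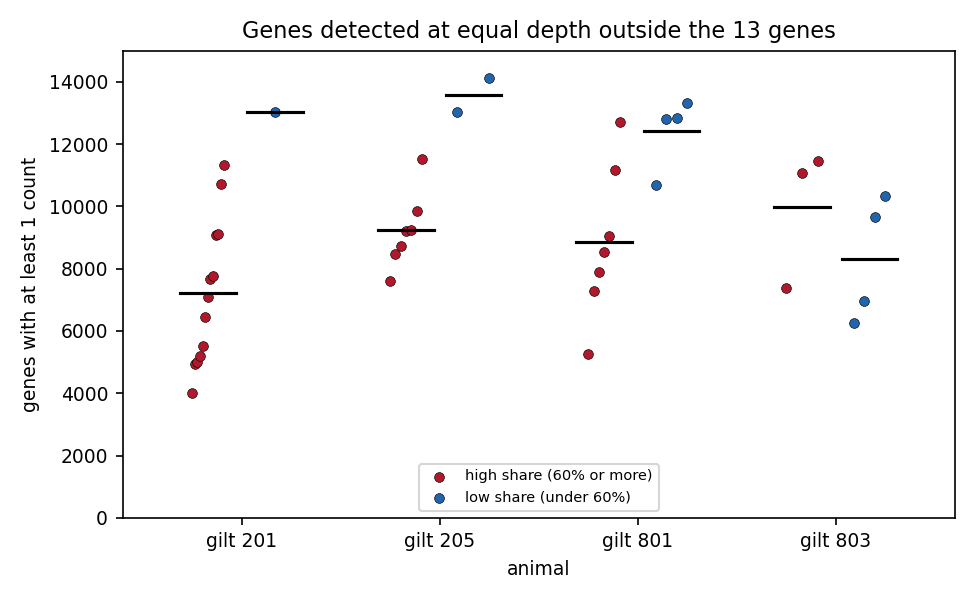
Genes with at least 1 count after thinning to 892686 counts outside the 13 genes (vertical axis), by gilt, with 1 point per oocyte ordered by value and a bar at the mean of each class. The low class mean lies above the high class mean in gilts 201, 205 and 801, and below it in gilt 803 (8307 against 9969 genes).

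No gene outside the 13 passed the test between classes. The quasi-likelihood test of edgeR on the 8 sums of gilt and class, with gilt in the model, covered 13664 genes, 11472 of them with a symbol, and called 0 at an adjusted p under 0.05 (0%; smallest adjusted p 0.984). At an unadjusted p under 0.05 there were 602 genes, where 683 are expected by chance, with 266 higher in the high class (1.95%) and 336 lower (2.46%). DESeq2 called 389 genes on the same sums and limma called 8 on mean log2 CPM. Those of limma were POLR2A, unnamed IDs, and ZP2, ZP3 and ZP4 of the sorting rule. The calls of DESeq2 also included these zona genes and unnamed IDs. The biological coefficient of variation was 0.879, and the median SE of a log2 difference was 1.01, or 0.78 for the 9155 genes at 10 CPM or more. Differences of that size could not be called with these gilts. Far larger ones were not called either, such as CILP at 4.20 ± 0.72 (SE), so 0 calls does not mean that differences are small. The signs of the 4 gilts were the same in 943 genes with a higher value in the high class (6.9%) and 1238 with a lower one (9.06%). The median log2 difference over all genes tested was -0.07. Without scaling factors it was -0.49, so signs of differences under about that size depend on the scaling. In limma, on means of log2 CPM over single oocytes, which changes the test and the averaging as well, it was -0.85.

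None of the genes named below passed this test, and their values are given as measured. Among genes that have a symbol, reach 10 CPM and have a higher level in the high class of every gilt, the 8 with the smallest p are given first (edgeR adjusted p of 0.984 for each). Their mean levels over gilts were 128 to 1654 CPM in high and 18.1 to 257 CPM in low oocytes. In each of the 8, some high oocytes lay above every low oocyte and no low oocyte lay above every high one. The 8 were picked by p and sign, and the high class has more oocytes (30 against 12). How many of all genes tested separate in this way, in oocytes or in sums, is not given. Such separation, here and below, therefore only describes the genes named.

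ASTL encodes ovastacin, the oocyte protease that cleaves ZP2 after fertilisation. The sums had 1156, 2228, 2478 and 754 CPM in the high class of gilts 201, 205, 801 and 803, against 118, 265, 292 and 204 CPM in the low class. Every high value lay above every low value. Single oocytes ranged from 94.2 CPM over a median of 887 to 7769 in the high class and from 2.95 over 221 to 1116 in the low class, and 13 of 30 high oocytes lay above all 12 low ones. The fitted log2 difference was 2.84 ± 0.62 (SE).

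CILP, an extracellular protein first described in cartilage, had sums of 202, 468, 204 and 74.5 CPM in the high class against 15.4, 43.0, 16.8 and 0.867 CPM in the low class, in the same order of gilts. Here too the groups of sums did not overlap. Single oocytes had 0 to 913 CPM (median 105) and 0 to 104 CPM (median 7.27), and 15 high oocytes lay above all low ones. The log2 difference was 4.20 ± 0.72.

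HSPA5, the main chaperone of the endoplasmic reticulum, where secreted proteins such as those of the zona are folded, had 1799, 1758, 1296 and 660 CPM in the high sums and 433, 230, 195 and 168 CPM in the low sums. The lowest high sum lay above the highest low one. Single oocytes had 2.09 to 3683 CPM (median 884) and 0 to 980 CPM (median 230), and the log2 difference was 2.42 ± 0.58. APLP2, a membrane protein related to the amyloid precursor, had sums of 556, 1059, 518 and 588 CPM against 155, 169, 106 and 105 CPM, a log2 difference of 2.32 ± 0.54.

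The rest of the 8 were LAMA3, ITGB4, SSC5D and SANBR. LAMA3, a laminin chain of basement membranes, had 85.7, 385, 226 and 59.4 CPM in the high sums and 1.86, 17.3, 74.8 and 11.5 CPM in the low sums, with a log2 difference of 3.44 ± 0.82. Its groups overlapped, since the low sum of gilt 801 lay above the high sum of gilt 803. ITGB4, an integrin subunit that binds laminin, had 95.2, 303, 60.98 and 54.1 CPM against 12.8, 43.0, 15.5 and 1.25 CPM and a log2 difference of 3.20 ± 0.74. SSC5D, a secreted scavenger receptor protein, had 123, 127, 104 and 175 CPM against 12.2, 24.9, 31.4 and 34.5 CPM, a log2 difference of 2.43 ± 0.57. SANBR had a log2 difference of 2.13 ± 0.51, with 254 ± 109 CPM (SD, n = 4 gilts) against 61.8 ± 35.7.

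The 8 genes named for lower values in the high class were at or near 0 in most high oocytes. Most were near 0 in the median low oocyte as well. Low class medians were 0.048 CPM for FCER1G, 0 for DLC1, 0.236 for NDRG1 and 0.168 for both ACSS1 and MGP. For RBM47, DAB2 and FOS they were 3.01, 3.22 and 30.9 CPM. FCER1G, an Fc receptor chain of myeloid cells, had high sums of 0.111, 0, 0 and 2.09 CPM and low sums of 16.9, 5.27, 0.0257 and 128 CPM. It was at 0 in 27 of 30 high and 5 of 12 low oocytes, and its highest low oocyte had 1728 CPM. FOS, an immediate early transcription factor, had high sums of 67.3, 0.665, 0.0635 and 40.5 CPM and low sums of 386, 13.2, 2.93 and 234 CPM, a log2 difference of -3.47 ± 0.70. The high sums of gilts 201 and 803 lay above the low sums of gilts 205 and 801, so FOS differed between animals as well. DAB2, an endocytic adaptor, had 7.74, 0.665, 0.508 and 1.28 CPM against 346, 16.2, 1.07 and 61.6 CPM, and a log2 difference of -4.39 ± 0.98.

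The others had their highest low sum in gilt 201, whose low class is 1 oocyte. MGP, a matrix protein of cartilage and vessel walls, had 729 CPM in the low sum of gilt 201 and 0.197 to 47.7 CPM in the other low sums. DLC1 had 90.5 CPM there and 0.0257 to 8.30 CPM in the others. RBM47, an RNA-binding protein, had 103 CPM there and 1.84 to 11.8 CPM in the others. ACSS1, an acetyl-CoA synthetase of mitochondria, had 63.1 CPM there and 0.0772 to 10.2 CPM in the others, and NDRG1, a stress-responsive gene, 63.99 CPM there and 1.41 to 26.3 CPM. High sums of these 5 genes were at most 24.7 CPM for MGP and at most 0.891 CPM for the rest. Beside these genes, the same low oocyte of gilt 201 was the highest in theca and stroma markers, and a low oocyte of gilt 803 the highest blood marker level. Their part in these values was not tested.

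**Figure D4:**
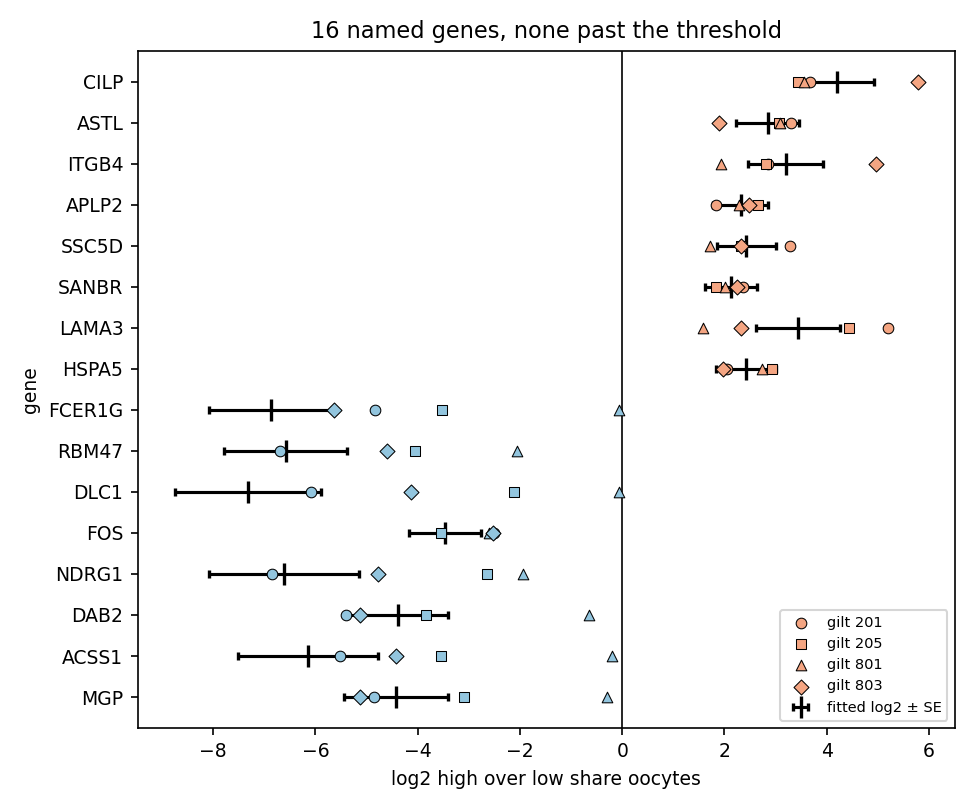
Log2 difference of high over low share oocytes for the 16 genes named by the smallest p with 1 sign in all 4 gilts, with a symbol per gilt and the edgeR estimate ± SE in black. Gilts lie close together for genes such as SANBR and APLP2, and gilt 801 lies near 0 for FCER1G, DLC1, ACSS1 and MGP, whose per-gilt values depend on the offset of 0.5 CPM where a sum is 0.

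With each oocyte as its own library and gilt in the model, edgeR tested 9694 genes and called 9 (0.0928%), all higher in the high class. Oocytes of 1 gilt share an animal, so the p-values of this fit are too small. Of the 9, 4 were unnamed IDs and 3 were ZP2, ZP3 and ZP4 of the sorting rule. The remaining 2 were CILP, with 4.42 ± 0.87 (log2, SE; edgeR adjusted p = 0.00334), and ASTL, with 2.97 ± 0.63 (edgeR adjusted p = 0.0116). APLP2, at 2.16, and FOS, at -4.53, were not called (edgeR adjusted p = 0.105 for both).

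Gene lists by function are described by the sign of the fitted log2 difference and its median. None of their members passed the edgeR test, and the background over all genes tested was 6459 above and 7205 below 0, with a median of -0.07. The oocyte-specific and maternal-effect genes, leaving out the 5 of the sorting rule, were 16 of 16 above 0 with a median of 0.79. SOHLH2, a transcription factor of early oocytes, had 31.2 ± 18.7 CPM in the high and 6.74 ± 7.22 CPM in the low class (3.28 ± 1.01, higher in 4 of 4 gilts). OOEP, part of the subcortical maternal complex, had 451 ± 176 and 373 ± 452 CPM (1.52 ± 1.29, 3 of 4 gilts), and ZAR1, needed for the first cleavage in mouse, 117 ± 17.9 and 104 ± 108 CPM (1.26 ± 0.98, 2 of 4 gilts). The list's median was 4.02 in gilt 201, 0.08 in gilt 205, -0.65 in gilt 801 and 0.15 in gilt 803. Without gilt 201 the list had 9 genes above and 7 below 0 and a median of 0.05.

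The nuclear-encoded partners of the 13 genes were not higher in the high class as a group, except in gilt 803. The 27 complex I genes tested had 9 values above and 18 below 0 (median -0.12), those of complexes II and III 3 and 8 (median -0.40), those of complex IV 3 and 7 (median -0.11) and those of ATP synthase 2 and 8 (median -0.23). In gilt 803 the list medians were 0.34, 0.53, 0.98 and 0.64 in this order, beside -0.23 over all genes. In the other gilts every one of these medians was below 0. Lower in all 4 gilts were 2 of the 27 complex I genes, 1 of the 10 of complex IV and 0 in the other lists. Over all genes tested this part was 9.06%. NDUFAB1, the acyl carrier subunit, had 102 ± 46.3 CPM in high and 172 ± 78.5 in low oocytes (-0.74 ± 0.49, lower in 4 of 4 gilts), and SDHA, the catalytic subunit of complex II, 76.4 ± 36.4 and 159 ± 77.3 CPM (-0.98 ± 0.64, lower in 3 of 4). Without gilt 201 the counts were 13 and 14 for complex I, 6 and 4 for complex IV and 5 and 5 for ATP synthase. COX7A2L, which joins complexes into supercomplexes, had 624 ± 85.998 and 335 ± 249 CPM (1.24 ± 0.63, higher in 3 of 4). COX5A of complex IV had 79.4 ± 33.1 and 103 ± 49.5 CPM (-0.32 ± 0.50, lower in 4 of 4). Leaving out the 3 low oocytes with under 2000 CPM in the oocyte genes, where the median over all genes was 0.11, gave 3 above and 24 below 0 for complex I (median -0.54), 0 and 11 for complexes II and III and 0 and 10 for ATP synthase.

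Genes that serve mitochondrial DNA and RNA gave values on both sides of 0. Those of mitochondrial DNA replication and transcription had 7 above and 11 below (median -0.11). TFAM, which packs and transcribes mitochondrial DNA, had a log2 difference of -0.33 ± 1.03, with 1.53 in gilt 801 and -4.44 in gilt 803, and POLRMT, its RNA polymerase, had 0.30 ± 1.86. TOP1MT, the mitochondrial topoisomerase, had 114 ± 78.3 and 56.7 ± 60.4 CPM (1.76 ± 0.88, higher in 4 of 4 gilts), and DGUOK, which supplies mitochondrial purine nucleotides, 4.94 ± 6.18 and 26.2 ± 21.6 CPM (-2.73 ± 0.96, lower in 4 of 4). Genes of mitochondrial RNA processing, polyadenylation and decay had 10 above and 8 below 0 (median 0.16, and -0.25 without scaling). LRPPRC, which stabilises mitochondrial mRNA, was at 0.21 ± 0.70. MTPAP, its poly(A) polymerase, was at 1.28 ± 0.90 and SUPV3L1, a helicase of mitochondrial RNA decay, at 1.33 ± 0.84, while PRORP, which cuts mitochondrial tRNA ends, was at -2.56 ± 1.28.

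Among other mitochondrial lists, those of import and stress response had medians above 0, and those of the tricarboxylic acid cycle and redox defence had the lowest. Mitochondrial ribosomal proteins had 23 above and 40 below 0 (median -0.27), with MRPL48 at 9.22 ± 2.13 and 24.1 ± 2.01 CPM (-1.41 ± 0.77, lower in 4 of 4 gilts) and MRPS2 at 1.14 ± 0.70 (higher in 4 of 4). Biogenesis, dynamics and mitophagy genes had 6 and 11 (median -0.12), with OMA1, an inner membrane protease, at 1.95 ± 0.82 and FIS1, an outer membrane fission factor, at -1.40 ± 1.10. Protein import genes had 9 and 9 (median 0.04, and -0.40 without scaling), although TOMM20, TOMM22 and TOMM70, receptors of the outer membrane, were each lower in 4 of 4 gilts (-0.71 ± 0.51, -0.98 ± 0.53 and -0.62 ± 0.53). The mitochondrial and integrated stress response had 10 and 7 (median 0.20, and -0.17 without scaling or -0.19 without gilt 201), with SESN2 at 1.18 ± 0.93 and HSPD1, the matrix chaperonin, at -0.64 ± 0.58. Genes of the tricarboxylic acid cycle and pyruvate entry had 7 and 19 (median -0.54), with MDH2, mitochondrial malate dehydrogenase, at 73.4 ± 21.5 and 197 ± 168 CPM (-1.13 ± 0.55, lower in 4 of 4). Redox defence genes had 7 and 13 (median -0.56), with PRDX1, a peroxiredoxin, at 193 ± 37.8 and 356 ± 105 CPM (-0.86 ± 0.49, lower in 4 of 4).

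Cytosolic ribosomal proteins had 1 value above and 41 below 0, with a median of -0.62. FAU was the exception, at 1.36 ± 0.90 and higher in 4 of 4 gilts. RPL4 had 188 ± 101 and 569 ± 672 CPM (-1.12 ± 0.67, lower in 3 of 4), and RPS16 137 ± 61.8 and 347 ± 301 CPM (-1.06 ± 0.70, lower in 3 of 4). The list's median was -1.81, -0.55, 0.62 and -0.81 in gilts 201, 205, 801 and 803, so gilt 801 went the other way. Without gilt 201 there were 11 above and 31 below 0, with a median of -0.11.

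Lists of oocyte maturation gave small medians. Meiotic arrest and resumption genes had 18 above and 6 below 0 (median 0.23), but 9 and 15 without scaling (median -0.12), so their direction depends on the scaling, and 7 and 17 in limma. It differed between gilts as well. The list's median was 1.86 in gilt 201, whose low class is 1 oocyte, and 0.13, -0.14 and -0.14 in gilts 205, 801 and 803. CCNB1, the cyclin of M phase, was at 0.47 ± 0.90 and MOS, the kinase that holds the egg at metaphase, at 0.24 ± 1.02. PPP2CA, a phosphatase subunit, had 422 ± 60.6 and 235 ± 77.6 CPM (0.90 ± 0.55, higher in 4 of 4), and CCNB3 106 ± 29.5 and 65.98 ± 53.4 CPM (1.23 ± 0.69, higher in 4 of 4). Maternal mRNA storage genes had 12 and 11 (median 0.10, and -0.36 without scaling), with YBX2, which binds stored mRNA in germ cells, at 510 ± 140 and 241 ± 214 CPM (1.62 ± 0.69, higher in 4 of 4). Deadenylation and mRNA decay genes had 14 and 21 (median -0.29). Among these, YTHDF3, a reader of methylated mRNA, had 85.8 ± 25.9 and 29.9 ± 6.80 CPM (1.49 ± 0.55), and ZFP36, a decay factor and early response gene, 55.9 ± 18.6 and 243 ± 273 CPM (-1.50 ± 0.64).

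DNA methylation genes had 6 above and 3 below 0 (median 0.25), and 4 and 5 without scaling (median -0.10) and without gilt 201. DNMT1, the maintenance methyltransferase, was at 0.25 ± 1.26, while UHRF1, its partner, had 118 ± 27.9 and 48.3 ± 42.9 CPM (1.94 ± 1.00, higher in 4 of 4) and TRIM28, a corepressor, 265 ± 30.3 and 113 ± 73.7 CPM (1.51 ± 0.62, higher in 4 of 4). The apoptosis list had 9 and 8 (median 0.46). In it, TP63, the factor that guards oocyte genome integrity in mouse, had 97.6 ± 38.6 and 27.9 ± 22.4 CPM (2.42 ± 0.84, higher in 4 of 4). Immediate early and growth arrest genes had 5 and 17 (median -0.59), with GADD45B at 11.9 ± 10.4 and 75.9 ± 65.98 CPM (-2.94 ± 0.94, lower in 4 of 4) and ATF3 at 3.39 ± 4.14 and 26.2 ± 31.9 CPM (-3.90 ± 1.30, lower in 4 of 4).

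**Figure D5:**
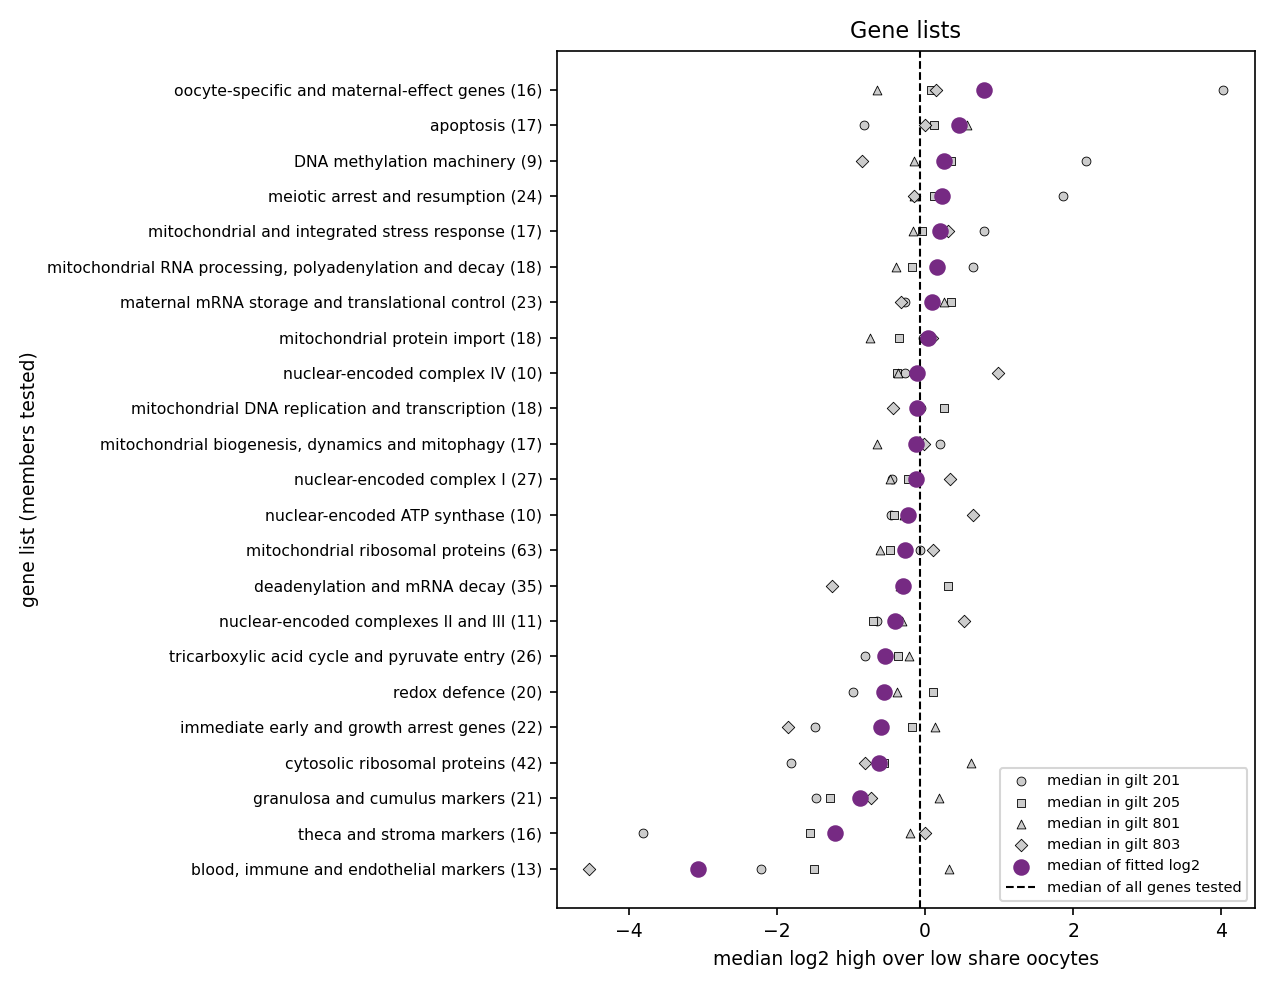
Median fitted log2 difference of high over low share oocytes for each gene list (horizontal axis), as a large point, with small symbols for the medians within single gilts and the median over all genes tested at -0.07 as a line. Ribosomal proteins (-0.62) and the markers of other cell types lie to the left and oocyte genes (0.79) to the right, and the gilts spread widely around most medians, with gilt 201 farthest out for oocyte genes (4.02).

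Markers of other follicle cells had mostly negative log2 differences. Granulosa and cumulus markers outside the rule, 21 tested, had 3 above and 18 below 0 (median -0.88), theca and stroma markers 0 and 16 (median -1.22), and blood, immune and endothelial markers 3 and 10 (median -3.06). Per oocyte, the summed granulosa markers had 97.3 to 9515 CPM in the high class (median 641) and 180 to 15208 CPM in the low class (median 591), and 2320 to 32783 CPM in dropped libraries (median 8405). AMH, a defining granulosa marker, was at 0 in both classes and in the dropped libraries. Theca and stroma markers summed to 5.37 to 3052 CPM in high oocytes (median 145) and 5.16 to 11777 CPM in low ones (median 230). Blood, immune and endothelial markers summed to 1.52 to 1153 CPM (median 30.7) and 8.11 to 15347 CPM (median 51.1), with CD3D, a T cell marker, at 0 in the high class. The ranges of all 3 sums overlapped between classes.

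On the log2 scale the mean granulosa sum of high minus low oocytes was -3.05, -0.89, -0.26 and -0.73 in gilts 201, 205, 801 and 803 (mean -1.23; exact sign-flip permutation p = 0.125, the smallest possible). With the unnamed IDs taken out, the value of gilt 801 was 0.09 and the mean -0.77, and without gilt 201 the mean was -0.63. For the theca sum it was -6.44, -1.01, -0.99 and -1.21 (mean -2.41, exact p = 0.125), and without gilt 201, whose low class is 1 oocyte, the mean was -1.07. For the blood sum it was -3.58, -1.01 and -3.57 in gilts 201, 205 and 803 and 0.09 in gilt 801 (mean -2.02, exact p = 0.25). Leaving out the 3 oocytes under 2000 CPM in the oocyte genes, all of gilt 803, gave -2.19 for granulosa, -1.93 for theca and -3.29 for blood markers in that gilt. Leaving out the 5 oocytes with shares of 30% to 60% turned the granulosa list, which then had 12 values above and 7 below 0 (median 1.65). A stricter limit on granulosa counts did so too (15 and 4, median 0.79). Both settings take out the only low oocyte of gilt 201, so that gilt no longer carries the contrast. The stricter limit also removes oocytes by their granulosa counts, so it acts on this list directly and its turn is no separate result. Single markers with the smallest p in their lists were uneven between gilts. PTX3, a matrix protein of expanded cumulus, had 204.8 CPM in the low sum of gilt 201 and 0.369 to 6.40 CPM in the other low sums. NR5A2, a nuclear receptor of granulosa cells, had low sums of 79.8, 74.3, 8.43 and 31.0 CPM and a level of 10.5 ± 9.03 against 48.4 ± 34.4 CPM. LHCGR, the luteinizing hormone receptor, had low sums of 52.3, 20.4, 7.01 and 0 CPM. CYP17A1, the androgen-forming enzyme of theca, had 113 and 47.1 CPM in the low sums of gilts 201 and 205 and was at 0 in both classes of gilts 801 and 803. COL3A1, a fibrillar collagen, had 1318 and 124 CPM in the low sums of those gilts and 0.257 and 0.108 CPM in gilts 801 and 803. AIF1 and CD163 of macrophages and CDH5 of endothelium had at most 22.4, 22.2 and 25.6 CPM in the low sums. What these cells contribute to the other differences was not tested.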

How the data were processed

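Per the labels, the authors deposited raw counts per gene, 1 column per oocyte (whole numbers, 25880 IDs, 14857 with a symbol). StringTie 1.2.2, featureCounts, HISAT2 2.1.0 and Trim Galore 0.4.3 were named as tools, per the submitters' processing notes. Neither build nor annotation nor strandedness is given in the sources used here, and no positions are printed. A second deposited table named for TPM was not used. The 55 libraries include 0 pairs with identical counts.

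Counts were summed per gilt and class over the 42 retained oocytes (8 sums), the 13 genes were removed, and edgeR 4.0.16 (R 4.3.3; filterByExpr, TMM, factors 0.676 to 1.41, glmQLFit and glmQLFTest, two-sided, Benjamini-Hochberg over all genes tested) was fitted with gilt and class. Levels are CPM without the 13 genes, log2 with a pseudocount of 1 for marker sums. Per-gilt log2 differences use an offset of 0.5 CPM. Deviations of sums from the same gilt correlated at 0.248, 0.167, 0.168 and 0.2 (gilts 201, 205, 801 and 803), against -0.133, -0.0118, -0.0396 and -0.0686 with other gilts. The animal is named in the labels, so gilt stayed in the model. Single values were compared with exact sign-flip permutation tests over gilts (numpy 2.4.6, scipy 1.17.1, pandas 2.3.3). Alternatives used DESeq2 1.42.0 and limma 3.58.1. The fit was also run on simulated data with added changes, and the part of them it recovered is not reported here.

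Where fewer than 5 genes were called in a direction, the 8 with the smallest p, a symbol, at least 10 CPM and 1 sign in all gilts were named, plus up to 4 members of each of 23 lists and a few stated genes. NLRP5 was not matched. The members, lists and named genes were chosen with earlier results of these data known.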

Additional observations from a re-analysis of the deposited data

Results flagged for a closer look

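Of 33 sets examined, most held the values of the 4 gilts, and a few held single oocytes of a gilt and class. In 4 of the 33, all of them sets of gilt values, 1 gilt lay far from the other 3. Chance alone sets apart about 1 in 20 such sets. For CILP the log2 difference of high over low share oocytes was 5.78 in gilt 803, against 3.43 to 3.67 in the others. For ASTL it was 1.89 in gilt 803, against 3.07 to 3.29. For FOS it was -3.55 in gilt 205, against -2.51 to -2.60. For the summed theca and stroma markers it was -6.44 in gilt 201, whose low class is 1 oocyte, against -0.99 to -1.21 in the others.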

How the results depend on the processing

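Limits. The contrast rests on 4 gilts, 1 of which has a single low oocyte, so an exact test over gilts cannot go below p = 0.125. The classes were chosen on a measured share, and low oocytes hold more counts outside the 13 genes. Alternatives without the unnamed IDs, and without oocytes under 2000 CPM in the oocyte genes, were added after the data had been seen.

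Against 0 genes called by edgeR, DESeq2 called 389 (147 higher, 242 lower, among them the 16 genes named by p), limma 8, no low-count filter 39 (17 higher, 22 lower), sums by gilt, stage and class 9, each oocyte as a library 9, a 50% threshold 2, leaving out shares of 30% to 60% 12, and the stricter granulosa limit 14; other settings called 0, as did leaving out any gilt or oocyte. ZP2, ZP3 and ZP4 of the sorting rule and unnamed IDs were among the calls of DESeq2, limma, stage sums and single oocytes. They were also among those without shares of 30% to 60% and at the stricter limit. Apart from them, limma called only POLR2A, and stage sums called only CILP and PRSS2. The cause of the differences between settings was not tested. Without the gilt as pairing block, edgeR still called 0 (775 at unadjusted p under 0.05), and the difference in genes detected was -2848 (permutation p = 0.0017); permuting oocytes within gilts gave -3022 (p = 0.00155), though oocytes of 1 gilt are not independent.

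Signs turned in genes with differences within their SE. DNMT1 was at -0.10 without scaling, -0.11 without the block, -0.0926 by stage sums, -0.34 by oocyte, -0.53 at a 50% threshold, -0.14 without shares of 30% to 60% and -0.44 at the stricter granulosa limit. In the same order MOS was at -0.0756, -0.32, -0.16, -0.14, -0.70, -0.53 and -0.64, and at -0.0214 with a 70% threshold. CCNB1 was at -0.0781 by oocyte, -0.41 at 50%, -0.56 without 30% to 60% and -0.90 at the stricter limit. TFAM was at 0.0322 at 70%, 2.58 without 30% to 60%, 2.72 at the stricter limit and 0.16 without oocytes under 2000 CPM. POLRMT was at -0.61 in limma, -0.31 without scaling, -0.15 without the block and -0.34 with no library dropped. LRPPRC was at -1.41 in limma, -0.25 without scaling, -0.29 by stage sums, -0.13 without 30% to 60%, -0.60 at the stricter limit, -0.27 with no library dropped and -0.15 without oocytes under 2000 CPM. Leaving out 1 gilt or oocyte gave -0.64 to 1.04 for DNMT1, -0.59 to 1.02 for MOS, -0.32 to 1.17 for CCNB1, -1.14 to 0.62 for TFAM, -0.84 to 1.495 for POLRMT, -0.37 to 0.69 for LRPPRC and -0.0639 to 0.216 for the log10 total.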

Other observations

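Chaperones of the endoplasmic reticulum were looked at after HSPA5 had been seen, so their list is a description. Of 15 tested, 10 had log2 differences above and 5 below 0, with a median of 0.81, beside a median of -0.07 over all genes. HSPA5, which prompted the list, and 2 others were higher in the high share class of all 4 gilts, as were 6.9% of all genes tested: HSPA5 at 2.42 ± 0.58, HYOU1, a nucleotide exchange factor for it, at 2.34 ± 0.58 (464 ± 156 against 95.9 ± 46.1 CPM, SD over 4 gilts), and HSP90B1, the chaperone also called GRP94, at 1.86 ± 0.56 (951 ± 357 against 275 ± 146 CPM). Others were near 0, with MANF at -0.02 ± 0.48 (187 ± 31.8 against 189 ± 30.4 CPM) and DNAJB11 at -0.02 ± 0.58. None passed the edgeR test.

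Proteins that carry a new chain into the endoplasmic reticulum and trim or glycosylate it gave a smaller median of 0.11, with 12 above and 6 below 0 of 18 tested. SPCS2, a subunit of signal peptidase, was at 1.47 ± 0.49 and STT3B, an oligosaccharyltransferase catalytic subunit, at 0.84 ± 0.54, both higher in 4 of 4 gilts, while SEC61A1, the channel itself, was at -0.51 ± 0.49 and lower in 4 of 4.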
